A study of Vitis riparia with 12 samples.

Results

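Of the 29966 gene models counted in root and shoot of the wild grapevine Vitis riparia, 61 were abundant in well-watered roots and nearly absent from well-watered shoots. They were selected on measured values, as a mean of at least 100 CPM (the reads on a gene scaled by the library's reads on all genes, with 1e6 as the common total) over the 3 control (C) root libraries and a mean below 1 CPM over the 3 C shoot libraries. There were 2373 genes at the root limit and 11832 below the shoot limit, and the 61 genes were 2.57% of the former. The difference between C root and C shoot is therefore the way these genes were chosen and not a result.

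RNA of root tips and of shoot tips was sequenced in 12 libraries, 3 replicates for each of 4 groups, and each replicate combined 3 potted vines. C root and C shoot came from vines given tap water each day, and WD root and WD shoot from vines under water deficit (WD) that were given no water for 14 d. All vines were of the same species and were grown, pruned and trained alike, and the material was whole root tips and shoot tips, so a level is an average over many cell types and over 3 vines. Fewer cells of a type and less RNA per cell cannot be told apart in such samples. Root RNA was isolated with a commercial kit and shoot RNA by another method, so organ and extraction cannot be told apart.

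Reads on genes were 14376065 to 22800079 per root library and 17429395 to 27769527 per shoot library, and at these depths 3 counts, taken as the floor of detection, equalled 0.108 to 0.209 CPM. The organ labels were checked with marker lists drawn from the words of the annotation. The 3 annotated green tissue genes summed to 2.39 to 12.0 CPM in root libraries and to 1292 to 2832 CPM in shoot libraries. Their sum was 7.91 to 12.0 CPM in WD root and 2.39 to 4.36 CPM in C root, and that of the 3 annotated phloem genes was 116 to 145 CPM in WD root and 45.9 to 69.4 CPM in C root. In shoot the phloem genes summed to 198 to 340.1 CPM under WD and 98.8 to 134 CPM in C. The part of these cell types in the results was not tested. The annotated names came mostly from tables of genes the study called as changed by water deficit. A difference between WD and C in these sums can therefore come from that choice of genes. The list of root markers matched 0 annotated genes, so root identity could not be checked in this way. Reads that aligned to more than 1 place were 14.6 to 17.5% of root tables and 9.51 to 10.3% of shoot tables and were not counted, so genes with near-identical copies may be undercounted.

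Roots take up water and mineral ions through the epidermis and cortex, and the endodermis and exodermis control what passes further inward. The walls of these barrier layers carry lignin, a polymer of phenolic alcohols, and suberin, a polyester of fatty acids and phenolics. Roots also express many transporters, secreted enzymes and defense proteins that are little expressed in leaves, and some of these respond to drought and to abscisic acid (ABA), the hormone that signals water shortage.

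An annotation was found for 15 of the 61 genes and 46 had none. The descriptions came from tables of genes the study called as changed, so the annotated genes are not a random sample of the 61. Of the 15, 6 have names that belong to wall phenolics or barriers: a cinnamyl alcohol dehydrogenase (CAD, which makes the alcohols of lignin), a laccase, a diphenol oxidase and a peroxidase (which oxidize phenols), CYP86A1 (in Arabidopsis a fatty acid hydroxylase of root suberin) and ABCG29 (in Arabidopsis a carrier of a lignin alcohol). A further 3 are named as transporters: PDR12 (in Arabidopsis an ABA importer of the ABC family), nitrate transporter 1:2 and the metal transporter Nramp6. Snakin-1 (in potato a small antimicrobial peptide), a germin-like protein and a curculin-type mannose-binding lectin are of defense-related families. RD22 is known in Arabidopsis as a gene induced by dehydration and ABA, and 2 of the genes carried that name. The last was annotated as a beta-carotene monooxygenase, an enzyme that cleaves a carotenoid.

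The limits cut through a continuous range of values. The members nearest the root limit were VIT_07s0031g00570, VIT_07s0151g00700 and VIT_02s0154g00280 at 100.4, 102 and 103 CPM, and the genes just outside it were VIT_10s0003g02480, VIT_05s0049g01410 and VIT_07s0104g01730 at 99.6, 99.4 and 98.6 CPM. The members nearest the shoot limit were VIT_11s0016g02800, VIT_16s0100g00810 and VIT_14s0066g02100 at 0.923, 0.862 and 0.778 CPM in C shoot, and VIT_00s0218g00110, VIT_07s0255g00030 and VIT_07s0031g03070 fell outside it at 1.01, 1.03 and 1.06 CPM. In 26 members at least 1 C root library was below 100 CPM, and in 12 at least 1 C shoot library was at 1 CPM or more. With every C library required to be within the limits, 27 genes remained.

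**Figure D1:**
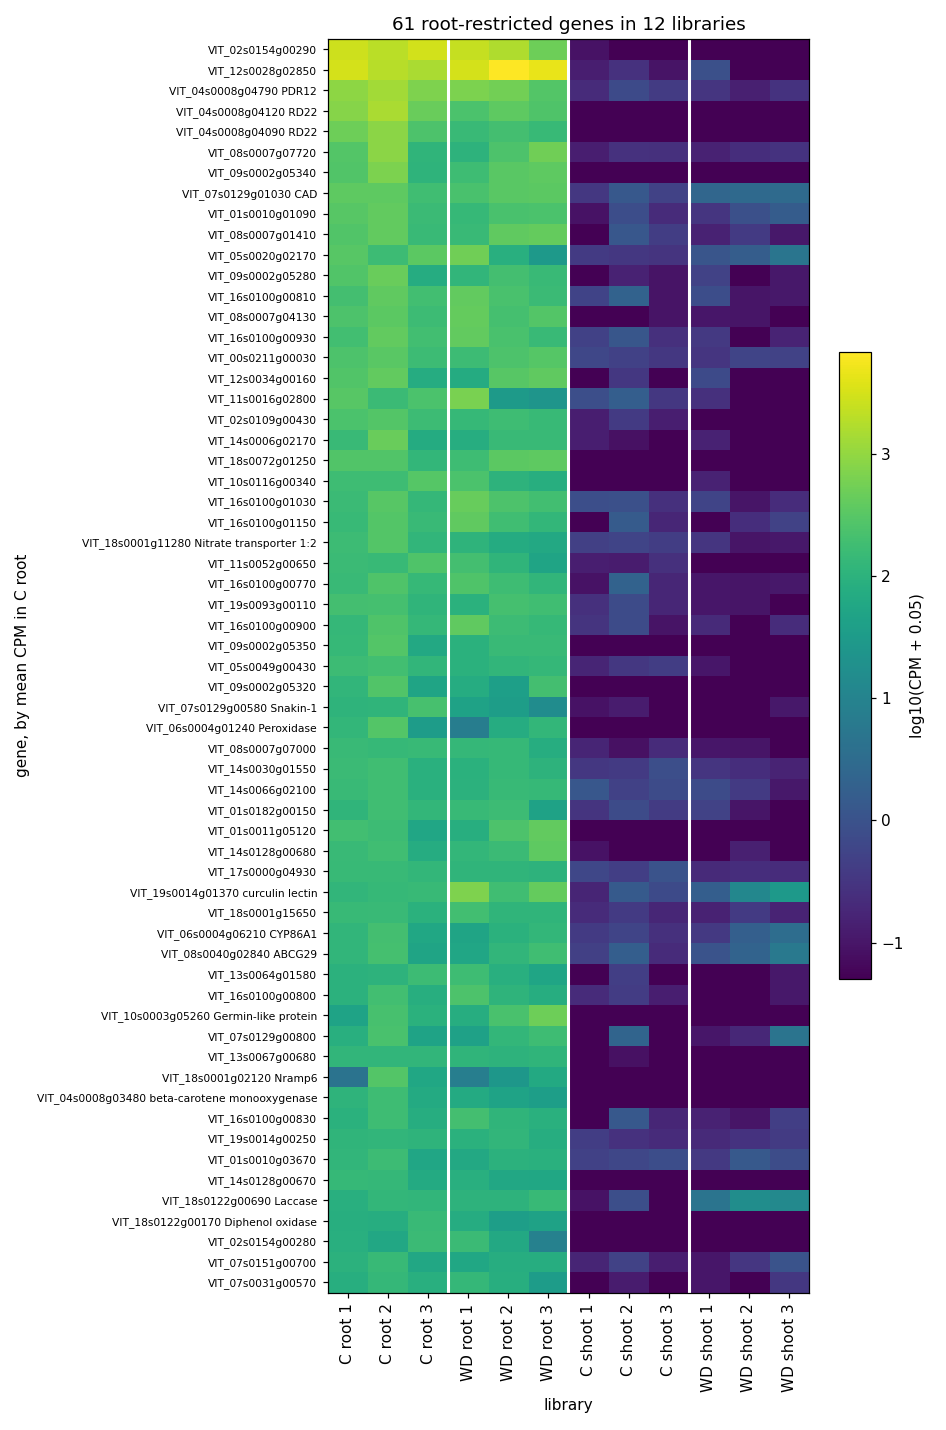
Level of each of the 61 genes (rows, ordered by mean CPM in C root) in each of the 12 libraries (columns), as log10(CPM + 0.05). The 6 root columns are bright in nearly every row, and in the 6 shoot columns the rows of the lectin and the laccase are brightest in WD shoot.

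The members took 1.75, 2.15 and 1.29% of all gene reads in C root replicates 1, 2 and 3, and 1.65, 1.83 and 1.51% in WD root. The ranges overlapped, and the medians differed by -0.10 percentage points (WD minus C) against an SD of 0.43 among the C libraries. A pair of genes with no annotation took the most reads. VIT_02s0154g00290 (chromosome 2, 5125408 to 5126097 of the PN40024 12X assembly) stood at 2803, 2050.5 and 3005 CPM in C root and at 2384, 1695 and 505 CPM in WD root. VIT_12s0028g02850 (chromosome 12, 3645743 to 3647306) stood at 3213, 1931 and 1559 CPM in C root and at 3243, 6857 and 4534 CPM in WD root. The former overlapped between treatments, with WD root replicate 3 far below the other libraries. The latter was higher in every WD library than in any C library, although WD replicate 1 exceeded C replicate 1 by only a little.

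The deposited RPKM values (reads scaled by the length of the gene model and by all mapped reads) allow a comparison of levels between genes. By mean RPKM in C root, VIT_02s0154g00290 was again highest at 4873 and VIT_12s0028g02850 next at 1317, followed by VIT_08s0007g01410 at 408 and VIT_16s0100g00810 at 340.4. The laccase was low on this scale at 6.76 RPKM, as were Nramp6 at 9.62 and the beta-carotene monooxygenase at 9.85. This order is limited, since for 42 of the 61 genes CPM divided by RPKM implied a length beyond the listed gene span, as it did for 93.3% of all genes at 100 CPM or more in C root.

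The first question was how these genes changed in roots under water deficit. No member passed the test in WD root versus C root (edgeR quasi-likelihood test, Benjamini-Hochberg adjustment, threshold 0.05), and neither did any of the 19545 genes tested (0%). Among members the smallest adjusted p was 0.369, and over all genes it was 0.147. The log2 fold change (log2FC) was negative for 43 members and positive for 18, with a median of -0.29, beside 0.01 over all genes tested and -0.13 over the 2373 genes at 100 CPM or more in C root. An unadjusted p under 0.05 was found for 9 members with lower levels in WD root, 14.8% of the 61 beside 3.26% of all genes, and for 2 with higher levels, 3.28% beside 5.8%. DESeq2, run as an alternative, called 3 members lower (background 0.839%) and 1 higher (background 1.42%). The 3 were Snakin-1 and both RD22 genes, and the 1 was the lectin. The C root libraries of this comparison are also those that chose the members, so a C library with unusually high levels enters both.

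The C root libraries differed in their levels of the members. C root replicate 2 was the highest C library for 46 members (75.4%), beside 35.5% of all genes at 100 CPM or more, and C root replicate 3 was the lowest for 43 (70.5%, beside 39.0%). Without C root replicate 2 the median log2FC was 0.01, whereas leaving out any other library gave -0.41 to -0.26. Without that library 13 of the 61 genes no longer reached 100 CPM in C root. With the same limits set on WD root and WD shoot, 68 genes were selected and their median log2FC was 0.00. Of these, 42 were shared, which is 68.9% of the members and 61.8% of the list from WD libraries.

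**Figure D2:**
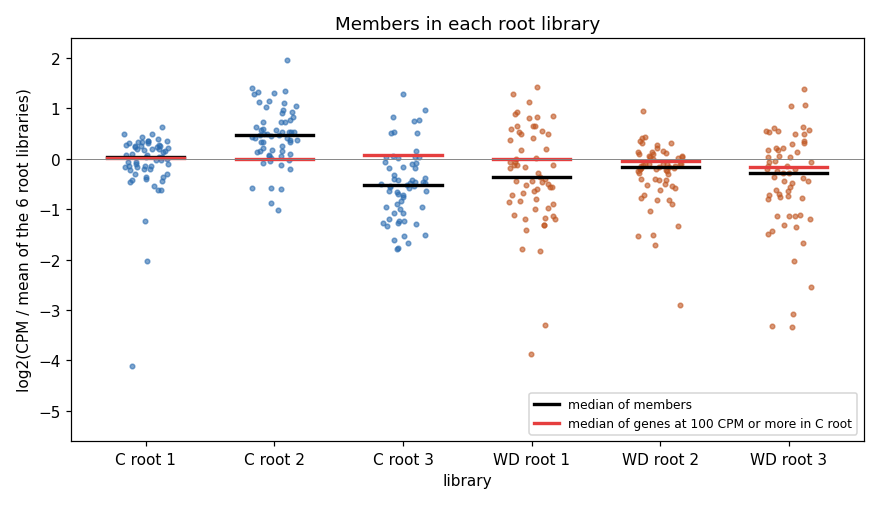
Each of the 61 genes (points) in each root library, as log2 of its CPM over its mean in the 6 root libraries, with the median of the members (black lines) and of the 2373 genes at 100 CPM or more in C root (red lines). The members' median was 0.47 in C root replicate 2 and -0.52 in C root replicate 3, while the median of the abundant genes was -0.01 and 0.07 in the same libraries.

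The members also varied more among replicates than other abundant genes did. The highest C root library was 2.09 times the lowest in the median member and 1.29 times in the median abundant gene, and for WD root the ratios were 2.15 and 1.48. Nramp6, an intracellular metal transporter in Arabidopsis, was the extreme at 4.40, 296 and 57.2 CPM in C root, so that a single library carried it past the limit. In WD root it stood at 7.72, 26.7 and 66.1 CPM, within the range of C. VIT_11s0016g02800 showed the opposite arrangement, with 325, 156 and 237 CPM in C root and 621, 31.0 and 23.3 CPM in WD root. WD root replicate 1 was the highest WD library for 26 members and the lowest for 29, so the members did not follow 1 order in the WD libraries.

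In 11 members the WD root and C root libraries did not overlap. Of these, 9 were lower in WD root, beside 6.67% of all genes, and 2 were higher, beside 7.98%. The other 50 overlapped. The 9 lower genes included 6 of the 15 annotated members, which is the group whose names were taken from tables of changed genes.

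Snakin-1 (VIT_07s0129g00580, chromosome 7, 15821788 to 15822643) had the lowest log2FC of the 61. It stood at 109, 117 and 221 CPM in C root and at 45.1, 35.9 and 15.6 CPM in WD root. Its log2FC was -2.23 with an SE of 0.49, and the adjusted p was 0.369 by edgeR and 0.0010 by DESeq2. The groups were well apart, with the highest WD library below the lowest C library by more than the spread in WD root.

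Both RD22 genes had lower values in WD root although their Arabidopsis namesake is known for induction by dehydration. VIT_04s0008g04120 (chromosome 4, 3451690 to 3463259) stood at 796, 1498 and 464 CPM in C root and at 243, 371 and 265 CPM in WD root, for a log2FC of -1.68 (SE 0.44, adjusted p = 0.397). VIT_04s0008g04090 (chromosome 4, 3435406 to 3438863) stood at 494, 882 and 246 CPM in C root and at 155, 199.6 and 142 CPM in WD root, for a log2FC of -1.73 (SE 0.45, adjusted p = 0.397). The genes lie next to each other with 2 little-read gene models between them, and both were highest in C root replicate 2 and WD root replicate 2. With each library left out in turn, the log2FC was -2.001 to -1.15 for the former and -2.08 to -1.20 for the latter. The WD and C root libraries of both did not overlap, so the sign could hardly change in these fits. By DESeq2 the adjusted p was 0.0099 for the former and 0.0105 for the latter. Neither had a counted read in any of the 6 shoot libraries. Their deposited RPKM were not all 0 there, at up to 0.028 for the former and 0.0070 for the latter.

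Among the transporters, nitrate transporter 1:2 (VIT_18s0001g11280, chromosome 18, 9597348 to 9600920), whose Arabidopsis namesake takes up nitrate at the root surface, stood at 163, 296 and 122 CPM in C root and at 107, 73.9 and 62.9 CPM in WD root. Its log2FC was -1.27 (SE 0.38, adjusted p = 0.439). PDR12 (VIT_04s0008g04790, chromosome 4, 4227016 to 4234518) stood at 919, 1321 and 701 CPM in C root and at 652, 565 and 290.4 CPM in WD root, for a log2FC of -0.98 (SE 0.39, adjusted p = 0.536). All WD libraries of both genes lay below all C libraries, for PDR12 by a small gap. ABCG29 (VIT_08s0040g02840), the other ABC transporter, overlapped widely at 120.3, 209 and 49.97 CPM in C root and 54.5, 123 and 179.9 CPM in WD root. None of the 207 annotated membrane transport genes, 191 of them tested, passed the test in root, and their median log2FC was 0.42. It was -0.98 or lower for the 3 members PDR12, nitrate transporter 1:2 and Nramp6 and -0.13 for ABCG29. Names came mostly from tables of genes the study called as changed on these libraries. The values of this and the other annotation lists are shaped by that choice and are no neutral background for the members. Over all genes tested in root the median was 0.01.

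**Figure D3:**
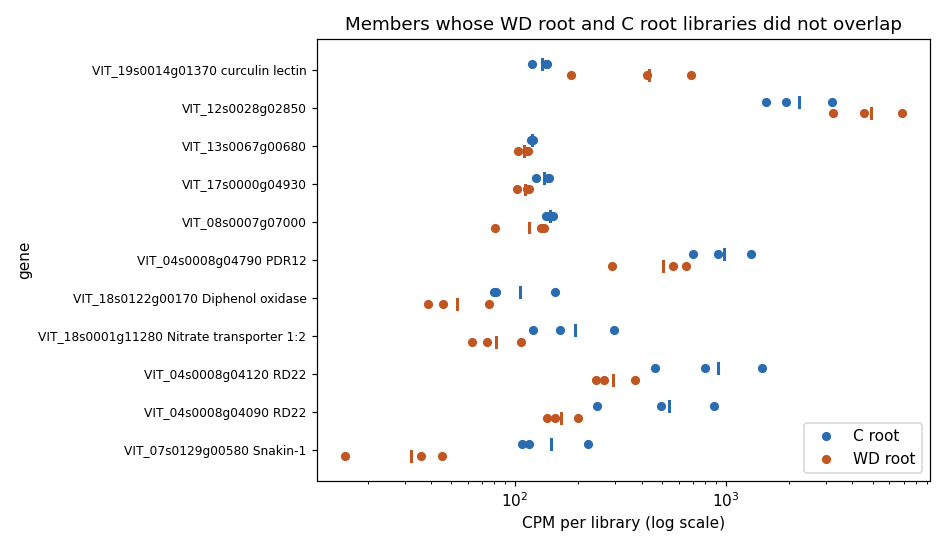
CPM per library on a log scale for the 11 members whose WD root (orange) and C root (blue) libraries did not overlap, with group means as short bars. Snakin-1 and the RD22 pair show the widest gaps among the 9 genes with lower levels in WD root, and the lectin the widest among the 2 with higher levels.

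None of the 6 genes named for wall phenolics or barriers passed the test in root, and their log2FC ran from -1.16 to 0.04. The diphenol oxidase (VIT_18s0122g00170, 18_random, 185345 to 188741) stood at 81.2, 80.1 and 155 CPM in C root and at 75.8, 38.7 and 45.5 CPM in WD root, for a log2FC of -1.01 (SE 0.39, adjusted p = 0.532). The laccase (VIT_18s0122g00690, 18_random, 538959 to 552194) was steady by comparison, at 88.7, 128 and 119 CPM in C root and 105, 106 and 142 CPM in WD root, with a log2FC of 0.04 (SE 0.20). CAD (VIT_07s0129g01030) was close to level as well, at 358, 359 and 182 CPM in C root and 228, 332 and 348 CPM in WD root, with a log2FC of -0.02 (SE 0.30) whose sign changed with total counts as the scaling. CYP86A1 (VIT_06s0004g06210) stood at 122, 204 and 56.3 CPM in C root and 49.8, 94.2 and 126 CPM in WD root, with overlap. The peroxidase (VIT_06s0004g01240) ran from 34.1 to 287 CPM in C root and from 7.44 to 123 CPM in WD root, with a log2FC of -1.16 and an SE of 1.02. The 39 annotated peroxidases and laccases, all tested, had 23 positive and 16 negative log2FC with a median of 0.36, and 0 were called. Their names, too, came mostly from genes the study called as changed. Summed over the 13 genes of the secondary wall list, which includes this laccase, levels were 463 to 825 CPM in WD root and 879.7 to 1478 CPM in C root. Gene by gene, 7 of the 13 had a positive and 6 a negative log2FC, with a median of 0.04 and 0 calls.

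None of the 3 defense-related members passed the test in root. The lectin (VIT_19s0014g01370, chromosome 19, 1451161 to 1452750) was at 121, 141 and 143 CPM in C root, the tightest of the annotated members, and at 689, 185 and 423 CPM in WD root. Its log2FC was 1.67 (SE 0.47, adjusted p = 0.422 by edgeR and 0.031 by DESeq2), the highest of the 61. The germin-like protein (VIT_10s0003g05260) stood at 48.2, 219 and 94.0 CPM in C root and at 79.6, 229.6 and 512 CPM in WD root, with overlap and a log2FC of 1.13 (SE 0.75). Over the 59 annotated defense-related genes, 52 of which were tested, 32 had a positive and 20 a negative log2FC, with a median of 0.81 and 0 calls. This list, too, holds mostly genes that the study called as changed. Among the 3 members the log2FC were 1.67, 1.13 and -2.23. The beta-carotene monooxygenase (VIT_04s0008g03480) stood at 109, 175 and 68.1 CPM in C root and 70.0, 47.8 and 38.7 CPM in WD root, with a log2FC of -1.18 (SE 0.40, adjusted p = 0.472) and a slight overlap.

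Among members with no annotation, VIT_12s0028g02850 had a log2FC of 1.09 (SE 0.40, adjusted p = 0.511). Small and even differences were seen in VIT_17s0000g04930, at 143, 145 and 126 CPM in C root and 115, 117 and 103 CPM in WD root, with a log2FC of -0.34 (SE 0.15, adjusted p = 0.561). VIT_08s0007g07000 stood at 152, 140.2 and 146 CPM in C root and 133, 137 and 80.4 CPM in WD root. The last of the 9, VIT_13s0067g00680, differed least, at 119 to 122 CPM in C root and 104 to 115 CPM in WD root. In VIT_17s0000g04930 and VIT_13s0067g00680 the C libraries varied little, so a small difference was enough to separate the groups. The remaining members with the most reads overlapped: VIT_08s0007g07720 ran from 117 to 870.4 CPM in C root and from 104 to 519.6 CPM in WD root, and VIT_09s0002g05340 from 111 to 651 CPM in C root and from 171 to 359 CPM in WD root.

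**Figure D4:**
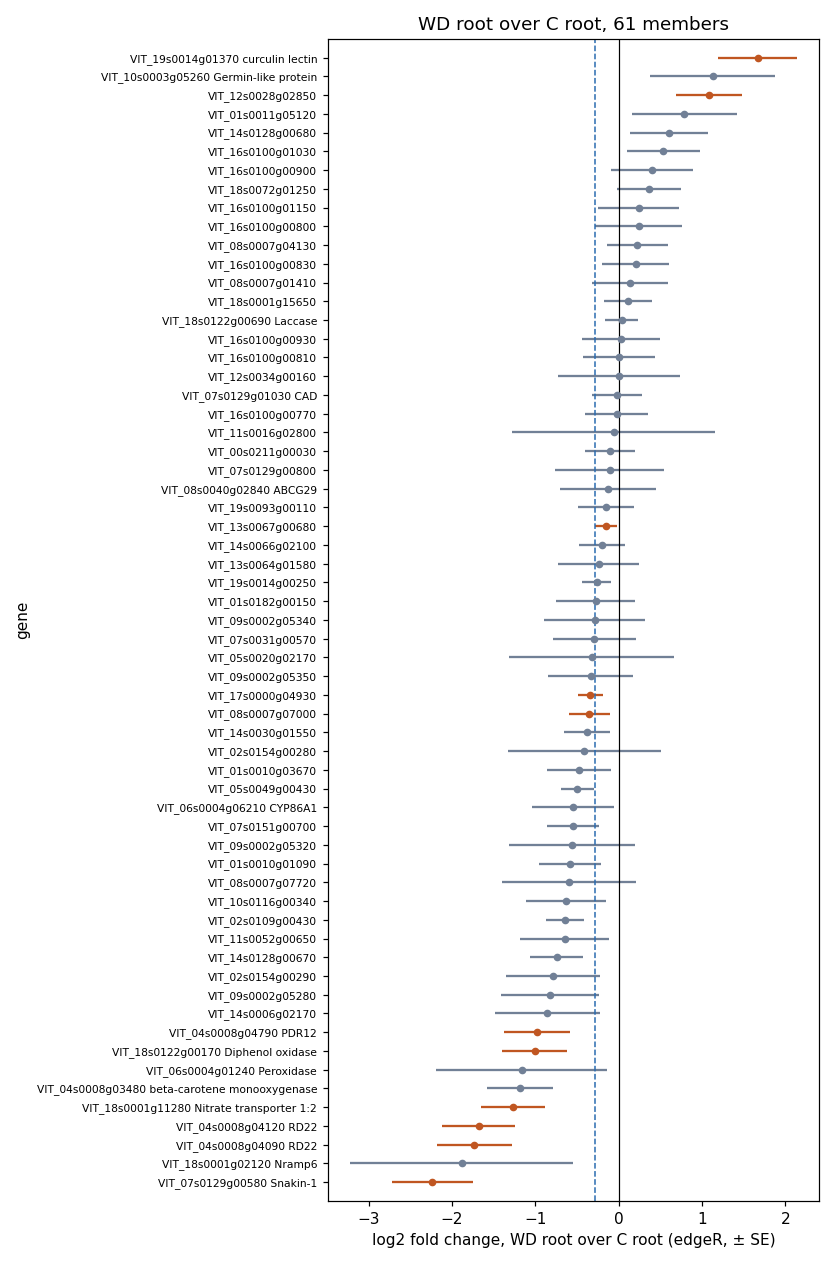
Log2FC of WD root over C root for the 61 genes with its SE (bars), ordered by value, with genes without overlap in orange and the median of -0.29 as a dashed line. Values ran from -2.23 for Snakin-1 to 1.67 for the lectin, and wide bars mark genes such as Nramp6 and VIT_11s0016g02800.

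Some members were neighbors on the chromosome. With a gap of at most 100000 bp, 17 of the 61 lay in 5 groups. The largest held 7 members within chromosome 16, 16268743 to 16509479, a span of 23 gene models, and an eighth member, VIT_16s0100g01150, lay beyond it. The files used here give these genes no name. All 7 were highest in C root replicate 2 among C libraries and in WD root replicate 1 among WD libraries. VIT_16s0100g00810 stood at 203, 386 and 191 CPM in C root and at 396, 233 and 160.2 CPM in WD root, and VIT_16s0100g00930 at 187, 392 and 188 CPM and 409, 226 and 153 CPM. The log2FC of the 7 ran from -0.02 to 0.54, above the median of all members. Among the 16 other gene models of the span, 12 were at 10 CPM or more in C root, and 2 reached 100 CPM but were at or above 1 CPM in C shoot: VIT_16s0100g00860 with means of 422 CPM in C root and 1.67 CPM in C shoot, and VIT_16s0100g00780 with 231 and 2.58 CPM. Such neighbors can be copies of each other, and how reads were divided among them is uncertain.

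The other groups were smaller. On chromosome 9, 4 members lay within 5008805 to 5096737, all highest in C root replicate 2, with log2FC from -0.82 to -0.29. On chromosome 2, VIT_02s0154g00280 lay beside the most read member, and both were highest in C root replicate 3 and had their lowest value in WD root replicate 3. VIT_02s0154g00280 stood at 87.9, 59.4 and 160.4 CPM in C root and 159, 63.3 and 8.82 CPM in WD root. On chromosome 14 an adjacent pair differed in sign, with a log2FC of -0.74 for VIT_14s0128g00670 and 0.60 for VIT_14s0128g00680. The RD22 pair formed the remaining group.

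The next question was whether the organ difference held under water deficit, in libraries that had no part in the choice. All 61 members were called higher in WD root than in WD shoot, beside 25.8% of all genes and 46.5% of the genes at 100 CPM or more in C root. Members could pass the filter on low counts through WD root, where they are high, so the count is given as a description. The median log2FC of WD root over WD shoot was 11.06, and the smallest were 3.10 for the laccase and 4.71 for the lectin. In CPM the laccase was 10.3 times and the lectin 30.5 times as high in WD root as in WD shoot. In 30 members every WD shoot library was at or under the floor of 3 counts, and against that floor they were at least 208-fold to at least 9867-fold higher in WD root. DESeq2 called 60, and gave no adjusted p for VIT_11s0016g02800. The lowest mean of a member in WD root was 32.2 CPM, for Snakin-1, and 48 of the 61 kept a mean of 100 CPM or more there.

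The last question was whether any of these genes appeared in WD shoot. In 30 members every WD shoot library was at or under 3 counts, and 31 had more than 3 counts in at least 1 WD shoot library. In 14 members no read was counted in any of the 6 shoot libraries, and in 21 every shoot library was at or under 3 counts. Some of the 14 had RPKM values above 0 in shoot, such as VIT_14s0128g00670 at up to 0.047. A count of 12 passed the filter on low counts in shoot, which a gene could pass through WD shoot alone, and 49 were not tested. The 5 members at 500 CPM or more in C root reached at most 0.865 CPM in any WD shoot library.

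In 7 members the WD shoot mean was 1 CPM or more, and in 54 it stayed below 1 CPM. Every member had a mean below 1 CPM in C shoot, so all 7 have a higher mean in WD shoot by the way they were picked. Every WD shoot library was above every C shoot library in 4 of the 7 and in no other member. The same 4, the laccase, the lectin, CAD and VIT_05s0020g02170, were called higher in WD shoot than in C shoot. Over all genes tested, 19.5% were higher without overlap and 13.1% were called higher. Those shares are no fair match for 4 of 7 genes picked by their WD shoot level. Members had been required to be low in C shoot, so C shoot is shared between the choice and this comparison. Over all members the WD shoot mean was lower than the C shoot mean in 29 and higher in 18, mostly at few reads. More members than these 4 were lower in every WD shoot library than in any C shoot library, all of them under the filter. The share of all genes lower in this way was not computed, so no pattern is read from it. VIT_11s0016g02800, for example, had 20, 46 and 7 reads in C shoot and 4, 0 and 0 in WD shoot.

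The laccase had the largest log2FC of the 4, over a C shoot level of 1, 22 and 0 reads, while the lectin rose by more CPM. The laccase stood at 0.041, 0.792 and 0 CPM in C shoot and at 4.63, 16.5 and 13.1 CPM in WD shoot, for a log2FC of 5.39 (SE 1.15, adjusted p = 0.021). Its WD shoot mean of 11.4 CPM was 10.2% of its C root mean. The sum of the 13 secondary wall genes, this laccase included, was 45.6 to 46.9 CPM in WD shoot and 79.0 to 175 CPM in C shoot. Of the 7 genes of that list tested in shoot, 2 were called higher, this laccase among them, and 3 lower.

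The lectin stood at 0.123, 1.40 and 0.670 CPM in C shoot and at 1.63, 11.7 and 29.1 CPM in WD shoot, for a log2FC of 4.36 (SE 1.15, adjusted p = 0.036). It was the only member whose WD libraries exceeded every C library in both organs. CAD stood at 0.287, 1.26 and 0.461 CPM in C shoot and at 2.39, 2.80 and 2.87 CPM in WD shoot, the most even of the 4, for a log2FC of 2.104 (SE 0.52, adjusted p = 0.030). VIT_05s0020g02170 (chromosome 5, 3900556 to 3903824), which has no annotation, stood at 0.328, 0.288 and 0.251 CPM in C shoot and at 1.07, 1.58 and 4.82 CPM in WD shoot, for a log2FC of 3.15 (SE 0.66, adjusted p = 0.019). In root the same gene spread from 29.04 to 537 CPM under WD.

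The calls depended on single libraries. Without WD shoot replicate 2 or C shoot replicate 3 there were 0 member calls in shoot, without C shoot replicate 1, C shoot replicate 2 or WD shoot replicate 3 there were 2, and without WD shoot replicate 1 there were 6, 5 of them higher. Calls over all genes tested moved in the same fits, from 27.1% with all libraries to 3.57% without WD shoot replicate 2, 3.19% without C shoot replicate 3, 24.2% when C shoot replicate 1 was dropped, 12.5% when C shoot replicate 2 was dropped and 14.1% without WD shoot replicate 3. They were 30.5% when WD shoot replicate 1 was left out. In these fits the log2FC ran from 4.84 to 8.78 for the laccase, 3.34 to 5.20 for the lectin, 1.78 to 2.89 for CAD and 2.32 to 3.51 for VIT_05s0020g02170. The WD and C shoot libraries of these 4 genes did not overlap, so the sign could hardly change. The kept sign is therefore no further support.

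A further pair of barrier genes was higher on average in WD shoot without passing the edgeR test. CYP86A1 stood at 0.328, 0.504 and 0.209 CPM in C shoot and at 0.305, 1.72 and 3.33 CPM in WD shoot, for a log2FC of 2.41 (SE 0.82, adjusted p = 0.070). ABCG29 stood at 0.410, 1.66 and 0.167 CPM in C shoot and at 0.967, 2.14 and 5.79 CPM in WD shoot, for a log2FC of 2.07 (SE 0.93, adjusted p = 0.137). By DESeq2, which called 37.9% of all genes tested in shoot, the adjusted p was 0.020 for CYP86A1 and 0.062 for ABCG29. The seventh, VIT_07s0129g00800, reached 4.76 CPM in WD shoot replicate 3 and at most 0.140 CPM in the other WD libraries. Of the 14 annotated genes of lipid transfer, suberin and the Casparian strip, 12 were tested in shoot and 7 were called higher and 0 lower. In root 11 were tested, with 7 positive and 4 negative log2FC, a median of 1.09 and 0 calls, beside -0.54 for CYP86A1. Of the 189 annotated transport genes tested in shoot, 91 were called higher and 10 lower. These lists hold mostly genes that the study called as changed on the same libraries, so their counts are not independent evidence. In all 7 members at 1 CPM or more, WD shoot replicate 1 was the lowest WD library, and in 6 of them WD shoot replicate 3 was the highest.

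**Figure D5:**
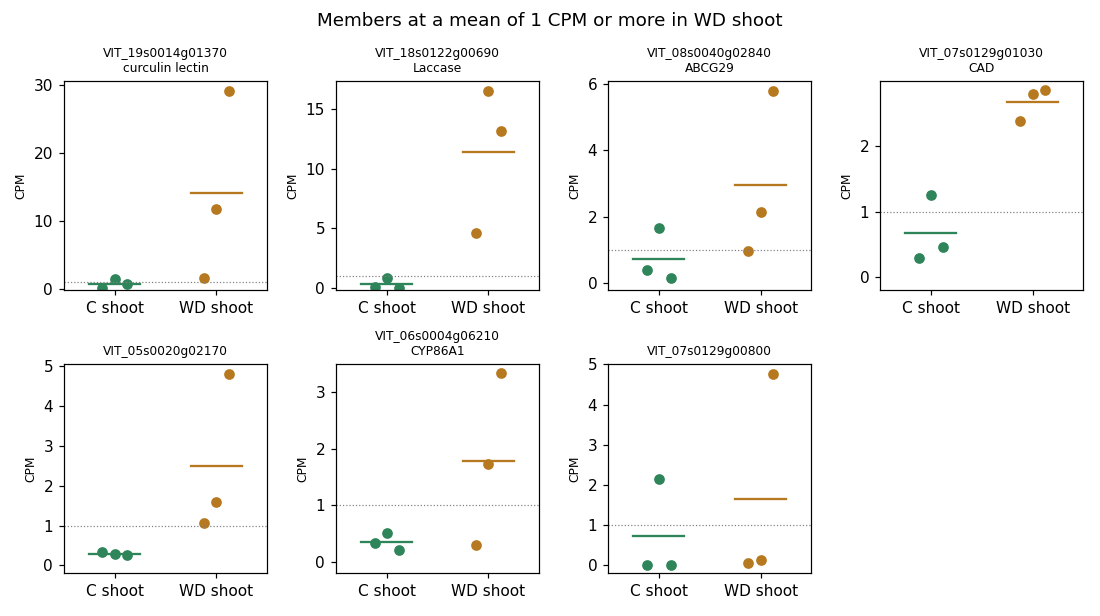
CPM per library in C shoot (green) and WD shoot (amber) for the 7 members at a mean of 1 CPM or more in WD shoot, with group means as bars and 1 CPM as a dotted line. The laccase and the lectin reach 16.5 and 29.1 CPM in WD shoot, and CAD stays between 2.39 and 2.87 CPM.

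Summed over the 61 members, levels were 19.0, 42.1 and 70.9 CPM in WD shoot and 10.1, 29.3 and 9.80 CPM in C shoot. The 7 genes made up 58.2, 86.9 and 90.1% of the sum in WD shoot. The sum of the other 54 was at most 7.94 CPM in a WD shoot library and at least 8.04 CPM in a C shoot library, where it reached 21.2 CPM in replicate 2. These 54 were set apart by their low WD shoot mean, so a low sum in WD shoot comes in part from that split. C shoot replicate 2 was the highest C library for 32 of the 46 members with any C shoot read, and 26 members had more than 10 reads there, beside 8 and 6 in the other C shoot libraries. It was also the deepest C shoot library, at 27769527 reads on genes, which can raise the number of members above 10 reads. The share of all genes highest in it was not computed, so a trait of the library cannot be told from one of the members. In CPM, C shoot replicate 2 had the highest summed member levels of the C shoot libraries. The part of these levels in the results was not tested, apart from the fits without that library. The RD22 genes, with no counted shoot read in any library, and the most read member, with at most 0.041 CPM in shoot, did not share in these levels.

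Whether the response to water deficit differed between organs was examined with an interaction term for organ and water supply in a fit of all 12 libraries, a test added after the data were seen. The C root and C shoot libraries in this fit are those that chose the members. The laccase was the only member called, beside 0.277% of all genes called in the same direction. Its log2FC in shoot exceeded that in root by 5.36 (SE 0.99, adjusted p = 0.049). The difference was 4.81 to 8.76 with each library left out, with adjusted p from 0.013 to 0.130, and the call was lost when WD root replicate 1 or 2, C root replicate 1, 2 or 3, WD shoot replicate 2 or 3, or C shoot replicate 3 was the library left out. In C shoot the laccase had 1, 22 and 0 reads. When each root library was paired with the shoot library of its treatment that bears its number, 4 members were called: the laccase at 5.52 (adjusted p = 0.039), CAD at 2.23 (adjusted p = 0.044), ABCG29 at 2.26 (adjusted p = 0.040) and CYP86A1 at 2.72 (adjusted p = 0.045). Calls over all genes rose as well, from 129 of 21267 without pairing to 757 with it, in either direction. For the lectin, which had higher values under WD in both organs, the difference without pairing was 2.70 (SE 1.21, adjusted p = 0.251), and for CAD 2.15 (SE 0.55, adjusted p = 0.085).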

How the data were processed

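Raw counts of 100 bp single-end reads per gene model in 12 libraries were deposited by the authors, who trimmed the reads, aligned them with TopHat2 (2.0.8) and Bowtie2 (2.1.0) to the V. vinifera PN40024 assembly and counted them with htseq-count. The authors also deposited Cufflinks RPKM values. Fold changes and p-values of the authors' own Cuffdiff comparisons were not used. There were 0 value columns without a sample. Lines naming no gene were 23.5 to 30.9% of each table and were dropped.

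CPM are counts over all gene counts, times 1e6. WD and C were compared with edgeR 4.0.16 (R 4.3.3): filterByExpr, TMM, robust quasi-likelihood fit per comparison of 6 libraries, two-sided, Benjamini-Hochberg adjustment over all tested genes, threshold 0.05. SE is |log2FC| over the square root of F. Alternatives were DESeq2 1.42.0, total-count and upper-quartile scaling, no filter, the replicate number as a factor, leaving out each library, and limma 3.58.1 with the RPKM values after a pseudocount of 1 or 0.1 and log2 transformation. The code was tested on simulated data. Replicates combined 3 vines each and no pair within a group was duplicated.

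The members, lists and tests were chosen with earlier results of these data known. Named genes are the 10 members with most C root CPM, up to 8 largest rises and 8 largest falls in root without overlap, up to 8 highest in WD shoot at a mean of 1 CPM or more without overlap, the 3 genes on each side of each limit, and the 3 highest of each annotation list with at least 3 members. Other annotated members, the chromosome neighbors, VIT_13s0067g00680, VIT_07s0129g00800 and VIT_14s0128g00670 with its neighbor were named after their values were seen. Lists were matched on annotation words (2956 genes annotated). V. riparia reads were aligned to another species' genome, so diverged genes may be undercounted. Deposited counts carry counting error that limits genes under the floor of 3 counts.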

Additional observations from a re-analysis of the deposited data

Results flagged for a closer look

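The laccase VIT_18s0122g00690 was called in the test of the difference between the organs' responses to water deficit. The test uses the C root and C shoot libraries on which members were selected, and the laccase had 1, 22 and 0 reads in C shoot. Its log2FC in shoot exceeded that in root by 5.36 (SE 0.99, adjusted p = 0.049, edgeR interaction test over 12 libraries), with 0.04 in root and 5.39 in shoot. All 3 WD shoot libraries were above all 3 C shoot libraries, while the root libraries overlapped. The adjusted p lies at the threshold and the call was lost in most fits with a library left out. Groups of 3 libraries are too small for the check of single outlying samples, which was not made.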

How the results depend on the processing

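The number of members was 57 with CPM scaled by TMM over the 12 libraries, 51 to 76 with each C library left out, and 27 with every C library within the limits. Members called in root were 4 with DESeq2, against 0 by edgeR (11 at an unadjusted p under 0.05) and 0 in every other alternative run. Members called in shoot were 4, against 5 with DESeq2, 2 with limma on log2(RPKM + 1), and 0 to 6 with each library left out. In WD root against WD shoot 60 or 61 members were called in every setting. The median log2FC in root was -0.29, and ran from -0.41 to 0.0093 with each library left out. For the interaction, 1 member was called, 0 without the filter, and 0 to 3 with each library left out.

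Deviations of same-numbered libraries correlated at -0.40 to 0.0065 between WD and C root, -0.092 to 0.14 between WD and C shoot, and 0.031 to 0.29 between WD root and WD shoot. Differently numbered pairs of WD root and WD shoot ran from -0.32 to 0.13. The paper states that root tips and shoot tips were cut at the same time. The sources used here do not say whether a number marks the same vines in root and shoot, and not every same-numbered pair exceeded 0.1, so the fits without the block were kept. With the replicate block there were 0 member calls in root, 4 in shoot, 61 between WD organs and 4 in the interaction. Over all 21267 genes in the interaction fit, calls rose from 129 to 757 with the block. CAD (VIT_07s0129g01030) had a log2FC in root of 0.022 with the block, 0.016 with total counts, 0.031 with limma on log2(RPKM + 1) and 0.032 on log2(RPKM + 0.1), against -0.02, and VIT_09s0002g05340 had 0.020 and 0.022 with limma, against -0.29. With each library left out, the log2FC in root ran from -2.35 to 0.20 for VIT_05s0020g02170, -0.28 to 0.12 for CAD, -0.15 to 0.48 for VIT_08s0007g01410, -1.29 to 0.46 for VIT_08s0007g07720, -0.53 to 0.43 for ABCG29, -0.71 to 0.55 for VIT_09s0002g05340 and -0.12 to 0.13 for the laccase. None of these was called, and the cause of each sign change was not tested. Of 338 values of named genes under alternatives, 295 kept their direction and side of the threshold. Most of these values are from root, where no alternative but DESeq2 called any gene. Their side of the threshold was thus largely fixed, and the count does not measure stability. Depth limits the shoot values, where 30 members had no WD library above 3 counts.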
